A study of Mus musculus with 4 samples.

Results

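The genes described here are 8 members of the BCL-2 family: Bcl2a1a, Bcl2a1b, Bcl2a1d, Mcl1, Bcl2, Bcl2l1, Bcl2l11 and Bax. They were taken by symbol from the gene list of the count matrices, where all 8 were found among 32285 features. Their counts of unique molecular identifiers (UMIs, each standing for 1 captured transcript molecule) were read in every cell type, sort fraction and time point. The cells were CD45+ leukocytes from the livers of mice of the genotype IL-22sgBFP, a reporter in which blue fluorescent protein marks cells that express the cytokine IL-22. Liver cells were released by digestion with collagenase and DNase, enriched on Percoll and sorted into IL-22-negative and IL-22-positive fractions by the reporter. One pair of fractions was taken before (0 h) and the other pair 12 h after MC38 cells, a mouse colon carcinoma line, were injected into the spleen, from which they reach the liver. Strain, age, the number of mice behind each library and any injection given to the 0 h mice are not given in the sources used here.

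BCL-2 family proteins decide whether the outer membrane of mitochondria is breached, which commits a cell to apoptosis. The anti-apoptotic members A1 (from the Bcl2a1 genes), MCL-1, BCL-2 and BCL-XL (from Bcl2l1) hold back the pore-forming effectors BAX and BAK, and BH3-only proteins such as BIM (from Bcl2l11) relieve that block. Leukocytes are known to depend on different anti-apoptotic members: resting lymphocytes on BCL-2, many myeloid cells on MCL-1, and activated or inflammatory leukocytes on A1, which mice encode in several near-identical genes.

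Each of the 4 groups was 1 library, so no difference between groups has a replicate check and no test was made. Intervals are exact and 95%, and cover counting error only. The IL-22-negative libraries held 8555 barcodes at 0 h and 10231 at 12 h, and the IL-22-positive libraries 300 and 1378, with between 1148221 and 29859062 UMIs a library. After filters, 283 to 9492 cells a library remained, with a median of 1794 to 3719 UMIs each. Between 9 and 135 barcodes of each library also occurred in another library. Il22 UMIs were rare in both fractions: at 0 h, 9 of the 8555 barcodes labelled negative held one, as did 3 of the 300 labelled positive, and at 12 h the numbers were 1 of 10231 and 0 of 1378. For that count of 0, 3 barcodes with a UMI in its place would be 0.218%. The names of the fractions below follow the labels of the libraries. Cell types were rebuilt by clustering and named "-like" from marker genes. They gave 5325 and 6876 lymphoid cells (T, NK or ILC1, B and plasma cells) for the IL-22-negative fraction at 0 and 12 h but 80 and 75 for the IL-22-positive one, where myeloid cells numbered 183 and 1208. Clusters of few UMIs were left unnamed and held 23.1% of the cells of the IL-22-negative 0 h library against 3.18% to 5.86% in the others.

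Of the anti-apoptotic members, the Bcl2a1 genes come first because their reads are hardest to assign. Bcl2a1a lies at chr9:88956900-88962419 on the plus strand (GRCm38, GENCODE), Bcl2a1b at chr9:89199209-89207827 on the plus strand and Bcl2a1d at chr9:88723285-88731914 on the minus strand. Their coding sequences are each 519 bases long and 97.9% (Bcl2a1a and Bcl2a1b), 98.7% (Bcl2a1a and Bcl2a1d) and 98.8% (Bcl2a1b and Bcl2a1d) identical. The coding part of the last exon, exon 2 of 2, is shown because 3' libraries read near it, with the 1 position at which the paralogs differ in capitals.
Bcl2a1a (chr9:88962172-88962270): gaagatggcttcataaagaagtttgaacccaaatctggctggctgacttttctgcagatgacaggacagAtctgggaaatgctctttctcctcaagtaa
Bcl2a1b (chr9:89207582-89207680): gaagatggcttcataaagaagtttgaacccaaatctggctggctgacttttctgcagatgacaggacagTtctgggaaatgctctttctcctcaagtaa
Bcl2a1d (chr9:88723434-88723532, minus strand): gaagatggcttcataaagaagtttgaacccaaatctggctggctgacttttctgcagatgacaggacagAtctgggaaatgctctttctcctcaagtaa
Counted from 1 at the first base shown, the difference from Bcl2a1b to both others is T70A, and Bcl2a1a and Bcl2a1d are identical across these 99 bases. Of the 311 windows of 90 bases in the last 400 bases of each transcript, 73.0% in Bcl2a1a, 65.9% in Bcl2a1b and 39.2% in Bcl2a1d occur in neither other paralog. How reads that match more than 1 paralog were counted is not given in the sources used here, so the paralogs are not ranked against each other, and their sum is given beside each of them. Among the cells kept, the fourth mouse gene of the group, Bcl2a1c, had 1 UMI in the IL-22-negative 12 h library and 0 in the other 3.

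The 3 paralogs did not share a cell distribution. Bcl2a1a was close to absent from lymphocytes: the lymphoid cells of the IL-22-negative libraries held 9 Bcl2a1a UMIs at 0 h and 8 at 12 h, or 0.701 and 0.473 CPM (UMIs of a gene for every 1000000 UMIs summed over the cells of a class in 1 library). The few lymphoid cells of the IL-22-positive libraries held 0. Myeloid cells of the IL-22-negative fraction held 43 and 175 Bcl2a1a UMIs (47.8 and 40.2 CPM), and those of the IL-22-positive fraction 59 and 501 (75.0 and 106 CPM). The lymphoid and myeloid intervals did not overlap in any library.

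The same contrast appeared in the split of the summed Bcl2a1 UMIs. Bcl2a1a made up 0.219% and 0.144% of the sum in T-cell-like cells at 0 and 12 h, and 0 and 0.274% in NK-or-ILC1-like cells. In B-cell-like cells it made up 0.488% and 0.256%. Monocyte-like cells gave 16.9% and 11.1% in the IL-22-negative and 8.52% and 13.5% in the IL-22-positive libraries. Conventional dendritic cells (cDC-like) gave 10.7%, 9.72%, 19.4% and 14.4% in the same order. The Arg1- and Pf4-led cluster, a small myeloid cluster called by its leading genes, had the lowest share among the myeloid groups split, at 2.27% (20 cells, IL-22-negative, 12 h) and 1.01% (30 cells, IL-22-positive, 12 h). Interferon-led lymphocytes, a cluster set apart by interferon-response genes, stayed on the lymphoid side at 0 and 0.280%, whereas interferon-led monocyte-like cells were at 9.89% to 16.02%.

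**Figure D1:**
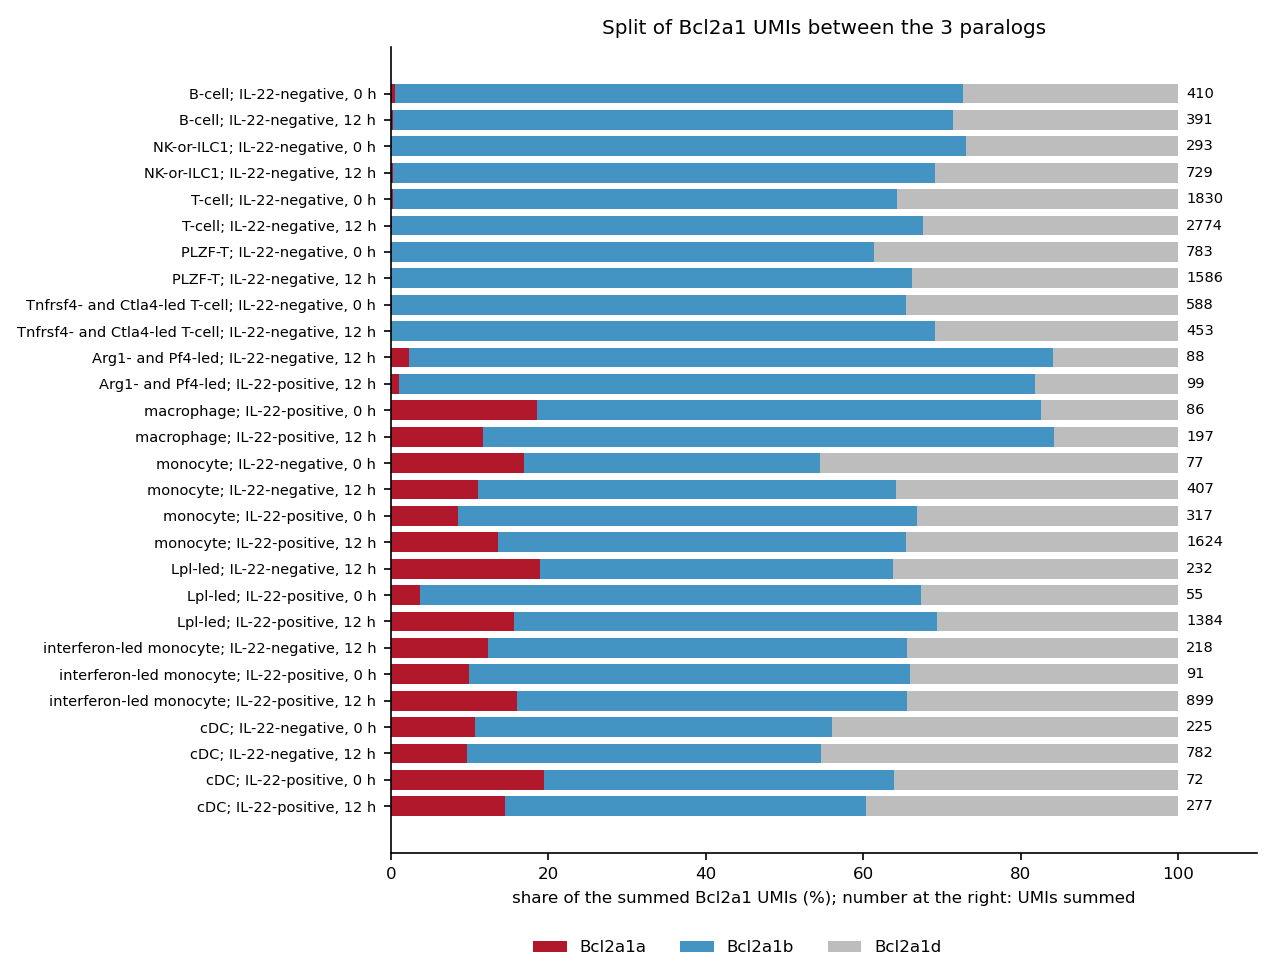
Share of the summed Bcl2a1 UMIs (%) that each of the 3 paralogs took, in classes and sub-clusters of each library, with the UMIs summed printed at the right. Class names are shortened by leaving out "-like". Bcl2a1a (red) takes under 1% of the T-cell-like, NK-or-ILC1-like and B-cell-like bars and between 1.01% and 19.4% of the myeloid bars.

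The sequence just upstream of the 3 genes is shown because the paralogs differ in where they were detected. RefSeq promoter windows (GRCm38.p6, 250 bases before to 50 after the start) aligned locally with 99.2% identity between Bcl2a1a and Bcl2a1b over 256 columns, 96.0% between Bcl2a1a and Bcl2a1d over 300 and 96.5% between Bcl2a1b and Bcl2a1d over 256. The capitals mark matches to TGANTCA, a form of the AP-1 site, and to GAGGAAGT, a form of the ETS-family PU.1 site, searched on both strands.
Bcl2a1a (chr9:88956670-88956899, plus strand): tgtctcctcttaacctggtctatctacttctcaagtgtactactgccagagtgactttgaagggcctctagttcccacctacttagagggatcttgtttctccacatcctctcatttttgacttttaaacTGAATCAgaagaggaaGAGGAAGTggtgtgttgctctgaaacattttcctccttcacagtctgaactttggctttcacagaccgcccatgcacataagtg
Bcl2a1b (chr9:89199023-89199208, plus strand): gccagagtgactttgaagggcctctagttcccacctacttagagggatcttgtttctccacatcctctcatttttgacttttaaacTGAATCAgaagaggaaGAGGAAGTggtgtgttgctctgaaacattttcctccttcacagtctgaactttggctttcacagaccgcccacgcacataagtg
Bcl2a1d (chr9:88731915-88732100, minus strand): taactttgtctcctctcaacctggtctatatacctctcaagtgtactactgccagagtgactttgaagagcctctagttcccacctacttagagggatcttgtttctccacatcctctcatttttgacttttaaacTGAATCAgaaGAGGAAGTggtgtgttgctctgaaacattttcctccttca
Each of the 3 windows held 1 match to each motif. Of 32851 promoter windows of 300 bases, 3.20% held GAGGAAGT and 7.81% held TGANTCA. The windows of Mcl1, Bcl2, Bcl2l1, Bcl2l11 and Bax held neither string. A loose NF-kappaB pattern was also searched, and 50.8% of all windows held it. Among the 3 paralogs shown it was in the window of Bcl2a1b alone, after the start and outside the stretch shown. The window of Bcl2a1c, which had almost no UMIs, held GAGGAAGT and the loose pattern but not TGANTCA. These are letter matches in these windows and not measured sites.

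Summed over the 3 paralogs, Bcl2a1 was highest in cDC-like cells among the 7 classes with at least 50 IL-22-negative cells at 0 h. It reached 761 CPM (665 to 867) there, against 282 (269 to 295) in T-cell-like, 203 (181 to 228) in NK-or-ILC1-like, 139.8 (110.3 to 175) in monocyte-like and 104 (94.6 to 115) in B-cell-like cells. Plasmacytoid dendritic cells (pDC-like) had 30.7 (20.99 to 43.3) and plasma-cell-like cells 15.4 CPM (8.62 to 25.4). Only monocyte-like and B-cell-like cells, and pDC-like and plasma-cell-like cells, were neighbours in this order whose intervals overlapped. The highest class was 49.4-fold (29.3 to 89.7) above the lowest.

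At 12 h the IL-22-negative order was led by the Lpl-led cluster at 658 CPM (576 to 748). These cells expressed monocyte genes but had the macrophage genes C1qb and C1qc and hemoglobin genes among their 10 leading genes. They were kept apart from monocyte-like cells. Bcl2a1a was itself among those 10, so Bcl2a1 levels in the monocyte-like class depend in part on this split. With the Lpl-led cells added, the ratio of the sum over time in IL-22-positive monocyte-like cells went from 0.722 to 1.10. That Bcl2a1a is high in this cluster against other clusters describes how the cluster is composed and is no separate result. cDC-like cells followed with 468 (436 to 502), T-cell-like with 310.3 (299 to 322), NK-or-ILC1-like with 267 (248 to 287) and monocyte-like with 192 CPM (174 to 212). Neutrophil-like cells had 140.4 (78.6 to 232), B-cell-like 110.2 (99.5 to 122), plasma-cell-like 21.2 (14.8 to 29.3) and pDC-like 7.19 CPM (3.45 to 13.2). The intervals of neutrophil-like cells overlapped those of monocyte-like and B-cell-like cells.

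In the IL-22-positive library at 12 h the sum was 1473 CPM (1274 to 1693) in macrophage-like, 1439.7 (1365 to 1518) in Lpl-led and 480.4 (457 to 504) in monocyte-like cells. The first pair overlapped, and both were above monocyte-like cells. At 0 h monocyte-like cells were the only IL-22-positive class with at least 50 cells, at 666 CPM (594 to 743). Macrophage-like cells (25 cells) had 1191 (953 to 1471) in that library. The 39 and 37 T-cell-like cells sorted as IL-22-positive, at 265 (181 to 374) and 289.7 CPM (191 to 422), overlapped the T-cell-like values of the IL-22-negative libraries.

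The share of cells with at least 1 Bcl2a1 UMI was read against classes in which the sum was lowest. At 0 h it was 35.8% of T-cell-like cells (median 2413.5 UMIs a cell), 29.3% of NK-or-ILC1-like cells (median 1971) and 68.6% of cDC-like cells (median 5685). It was 5.17% of pDC-like cells (median 3894) and 13.5% of plasma-cell-like cells (median 11371.5). Cells with under 1000 UMIs were left out of the thinning here and below. With every other cell thinned to 1000 UMIs the shares became 22.5%, 16.95% and 30.6% against 1.12% in pDC-like cells and 0 in plasma-cell-like cells (interval up to 3.85%). B-cell-like cells had 14.5%, or 8.55% after thinning. Because pDC-like and plasma-cell-like cells were picked for their low sum, that the other 4 shares lie above theirs is no separate result.

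**Figure D2:**
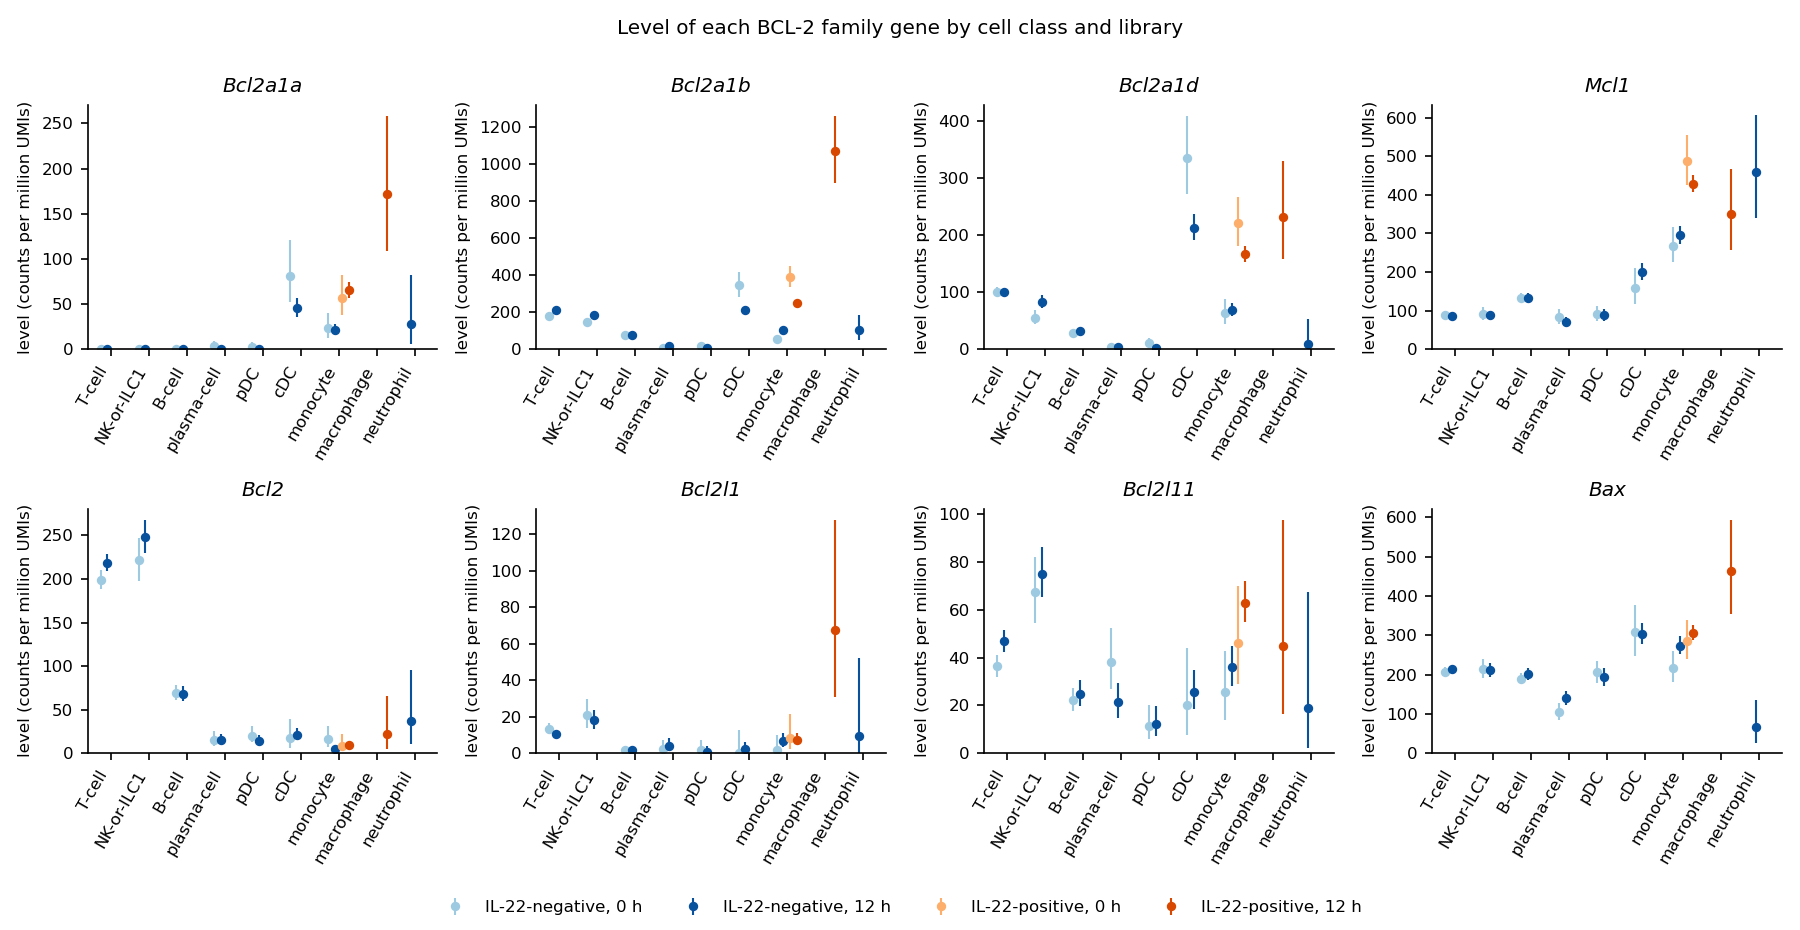
Level of each of the 8 genes (CPM, linear axis from 0) in the named classes with at least 50 cells in a library, with exact 95% Poisson intervals as bars and 1 color for each library. Bcl2 is highest in T-cell-like and NK-or-ILC1-like cells, Mcl1 in monocyte-like and neutrophil-like cells, and Bcl2a1a stays near 0 in lymphocytes. Class names are shortened by leaving out "-like", and the Lpl-led cluster is not drawn.

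Within T cells, the Bcl2a1 sum separated naive from other sub-clusters. At 0 and 12 h naive-CD4-T-like cells had 33.3 and 30.7 CPM and naive-CD8-T-like cells 31.8 and 43.4. PLZF-T-like cells (innate-like T cells named for their transcription factor) had 470.2 and 554. Tnfrsf4- and Ctla4-led T cells, which carry regulatory T cell markers, had 569 and 357, and effector-CD8-T-like cells 460.3 and 316. Among innate lymphocytes, ILC1-like cells had 269 and 402 CPM and conventional-NK-like cells 137 and 103. The intervals of the naive sub-clusters overlapped none of these others at either time.

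Among cDC-like cells the sub-cluster led by Fscn1, a gene of mature dendritic cells, had the highest values in all 4 libraries, from 3013 to 4376 CPM, on 2 to 12 cells a library. Cd209a-led cells of the IL-22-negative libraries had 833 (31 cells) and 414 CPM, and Xcr1- and Clec9a-led cells 298 at 12 h. Among monocyte-like cells the sum ranged more widely than between most classes. It was 53.7 and 34.2 CPM in Gstm1-led cells of the IL-22-negative libraries and 39.4 in S100a8-led cells at 12 h, against 617 in interferon-led cells at 12 h. A value pooled over monocyte-like cells is therefore given with the makeup of the class.

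Mcl1 (chr3:95658788-95663176, plus strand), whose short-lived protein sequesters BIM and BAK, was a myeloid-weighted gene found in every class. In IL-22-negative cells at 0 h it had 269 CPM (227 to 316) in monocyte-like, 159 (117 to 211) in cDC-like and 134 (123 to 146) in B-cell-like cells. NK-or-ILC1-like, pDC-like, T-cell-like and plasma-cell-like cells lay between 83.2 and 91.5 CPM with overlapping intervals. At 12 h neutrophil-like cells led with 459 (339 to 606), above monocyte-like cells at 295 (272 to 319), Lpl-led cells at 269 (218 to 329) and cDC-like cells at 201 (179.8 to 223). The highest class was 3.23-fold (2.45 to 4.29) above the lowest at 0 h and 6.60-fold (4.63 to 9.28) at 12 h, a smaller span than that of the Bcl2a1 sum. In the IL-22-positive fraction monocyte-like cells had 487 (427 to 554) and 428 CPM (406 to 451). Ace- and Nr4a1-led monocyte-like cells, with hemoglobin genes besides non-classical markers among their leading genes, had 586 and 630.1 CPM at 0 and 12 h in that fraction.

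Bcl2 (chr1:106538178-106714274, minus strand) showed the reverse weighting. NK-or-ILC1-like cells had 222 CPM (198 to 248) at 0 h and 248 (230 to 268) at 12 h, and T-cell-like cells 199 (188 to 210.3) and 218 (209 to 228). The intervals of these 2 classes overlapped at 0 h and did not at 12 h. B-cell-like cells had 69.5 and 67.9 CPM, pDC-like cells 20.1 and 13.7, and plasma-cell-like cells 15.4 and 15.3. Monocyte-like cells had 16.3, 5.19, 8.40 and 8.87 CPM in the IL-22-negative 0 h and 12 h and the IL-22-positive 0 h and 12 h libraries, on 4 to 30 UMIs. The highest class was 14.4-fold (8.60 to 26.04) above the lowest at 0 h and 47.8-fold (26.6 to 96.3) at 12 h.

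Sub-clusters with a high Bcl2a1 sum did not all have low Bcl2. PLZF-T-like cells had 265 and 269.5 CPM of Bcl2 at 0 and 12 h, and ILC1-like cells 321 and 329.6, against 121 and 148 in conventional-NK-like cells. Tnfrsf4- and Ctla4-led T cells had 86.1 (69.1 to 106) and 74.9 CPM (60.6 to 91.5). Naive-CD4-T-like and naive-CD8-T-like cells, lowest in Bcl2a1, had 129 (104 to 159) and 174 CPM of Bcl2 at 0 h, and the interval of the naive-CD4-T-like cells overlapped that of the Tnfrsf4- and Ctla4-led cells.

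Bcl2l1 (chr2:152780668-152831728, minus strand), the gene of BCL-XL, was rare. NK-or-ILC1-like cells had 20.8 and 17.96 CPM at 0 and 12 h and T-cell-like cells 13.4 and 10.5, and B-cell-like cells had 1.53 and 1.97. IL-22-negative cDC-like cells had 0 UMIs at 0 h, and 3 UMIs in their place would be 10.1 CPM (the exact upper limit is 12.5). The highest value in a class of at least 50 cells came from macrophage-like cells of the IL-22-positive 12 h library, at 67.3 CPM (30.8 to 128) on 9 UMIs, whose interval did not overlap those of monocyte-like or Lpl-led cells. The Arg1- and Pf4-led cluster of the same library had 75.6 CPM (27.8 to 165) on 6 UMIs in 30 cells. Most class values of Bcl2l1 thus rest on few UMIs.

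Bcl2l11 (chr2:128126038-128162547, plus strand), the gene of the BH3-only protein BIM, was highest in NK-or-ILC1-like cells among the IL-22-negative classes. They had 67.3 CPM (54.5 to 82.1) at 0 h and 75.2 (65.2 to 86.2) at 12 h, against 36.3 (31.8 to 41.3) and 46.8 (42.4 to 51.5) in T-cell-like and 22.2 and 24.8 in B-cell-like cells. pDC-like cells had 11.5 and 12.2 CPM, 5.84-fold (3.20 to 11.7) and 6.15-fold (3.74 to 10.8) below NK-or-ILC1-like cells. At 12 h Lpl-led cells, at 73.7 CPM (48.2 to 108), overlapped NK-or-ILC1-like cells. The Arg1- and Pf4-led cluster of the IL-22-positive 12 h library had 227 CPM (134 to 359, 30 cells), above the intervals of the other classes of that library with at least 50 cells.

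Bax (chr7:45461697-45466898, minus strand), the pore-forming effector, had the smallest measured span between IL-22-negative classes at 0 h, 2.94-fold (2.19 to 3.94). That interval overlapped the one of Mcl1, 3.23-fold (2.45 to 4.29), so the 2 genes are not ranked. At 12 h Bax spanned 6.45-fold (3.05 to 16.3). In the IL-22-negative libraries T-cell-like cells had 208 and 215 CPM, NK-or-ILC1-like cells 215 and 211, B-cell-like cells 189 and 201, and pDC-like cells 206 and 193. cDC-like cells were higher at 308 (248 to 378) and 303 (277 to 331), and plasma-cell-like cells lower at 105 and 139.6. At 12 h the Lpl-led cells had 423 CPM (357 to 496) and neutrophil-like cells 65.5 (26.3 to 135). Neutrophil-like cells thus combined the highest Mcl1 of that library with a low Bax, on 50 cells. Their Bax interval overlapped that of plasma-cell-like cells, so the lowest Bax is not assigned to either class. Bak1, the other effector, had 16.01 and 13.6 CPM in T-cell-like and 37.2 and 35.9 in cDC-like cells.

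The genes whose levels followed each member most closely were taken over 42 sums of 1 class or sub-cluster in 1 library, as Pearson correlations of log2(CPM + 10). These sums share libraries and differ in depth, and the correlations are descriptions. Among the genes closest to Mcl1 were the bacterial lipopeptide receptor Tlr2 (0.940) and Tnfaip2 (0.939). Bcl2 went with Fam189b (0.939), the lymphocyte protease gene Ctsw (0.939) and the T cell kinase gene Txk (0.937). For the Bcl2a1 sum the values were lower, with the transcription factor gene Maf at 0.768, St13 at 0.763 and Txnrd1 at 0.740. Bcl2l1 was followed by Rgs1 (0.763), Slc3a2 (0.760) and Sqstm1 (0.744).

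The first comparison asked how the members differed 12 h after tumor cell injection in the IL-22-negative cells. In lymphocytes they differed little. A gene was counted as measured with at least 50 UMIs in the higher of both sums, and as higher or lower from a ratio of 1.5. A gene can thus be measured only through the group where it is high, so counts of members that passed are descriptions. In T-cell-like cells 0 of the 7 measured members passed in either direction, where 3.96% of 7849 measured genes did. In B-cell-like cells 0 of 6 passed (5.97% of 5934 genes). In NK-or-ILC1-like cells 1 of 6 passed, Bcl2a1d, which rose (1.49% of 4952 genes were higher). The 2 measured members in pDC-like cells and the 2 in plasma-cell-like cells, Mcl1 and Bax, did not pass (4.81% and 16.6% of genes did).

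Ratios within T-cell-like cells ran from 0.785 for Bcl2l1 to 1.29 (1.09 to 1.52) for Bcl2l11. Under the alternative settings the ratio of Bcl2l11 ran from 1.02 to 1.37, so its rise depends on the processing. The Bcl2a1 sum stood at 1.10 (1.04 to 1.17), Bcl2 at 1.10 (1.02 to 1.18), Mcl1 at 0.969 and Bax at 1.03. The median log2 ratio of the measured members was 0.05, against -0.03 over all measured genes. In NK-or-ILC1-like cells Bcl2a1d went from 54.8 CPM (43.4 to 68.3) to 82.5 (72.1 to 94.0), a ratio of 1.51 (1.16 to 1.97), and the 2 intervals did not overlap. That ratio sits at the threshold and was below it under 4 of the 8 alternative settings tried, down to 1.26 without removal of doublets.

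Sub-clusters of the same lineages went in opposite directions. In Gzmm- and Ly6c2-led CD8-T-like cells Bcl2a1b rose 1.59-fold (1.22 to 2.07) and Bcl2a1d 2.11-fold (1.32 to 3.47), which took the sum from 85.5 (70.3 to 103) to 146 CPM (128 to 165), and 2.62% of measured genes were higher. In Tnfrsf4- and Ctla4-led T cells both fell, to a ratio of 0.664 (0.570 to 0.773) for Bcl2a1b and 0.562 (0.450 to 0.700) for Bcl2a1d, and the sum from 569 (524 to 617) to 357 CPM (325 to 391), where 6.41% of genes were lower. The summed level of the regulatory T cell markers in that sub-cluster was 1419 CPM at 0 h and 871 at 12 h, and its part in the result was not tested. In effector-CD8-T-like cells Bcl2a1d fell to 0.561 (0.362 to 0.858), where 3.79% of genes were lower. The measured values of Bcl2 and Bax in these 3 sub-clusters stayed between ratios of 0.870 and 1.37.

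ILC1-like and conventional-NK-like cells also parted. In ILC1-like cells the sum went from 269 CPM (232 to 309) to 402 (370.1 to 435), and Bcl2a1b rose 1.53-fold (1.25 to 1.89), where 2.66% of genes were higher. Of 5 measured members 0 passed in conventional-NK-like cells (5.15% of genes did), where the ratio of the sum was 0.752 (0.573 to 0.989) and that of Bcl2a1b 0.678 (0.505 to 0.912). Mcl1 gave 0.869 and 1.08 in the same pair of sub-clusters and Bcl2 1.03 and 1.22. In PLZF-T-like cells 0 of 6 passed (5.21% of genes did), with the sum at 1.18. The differences between sub-clusters were not tested.

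**Figure D3:**
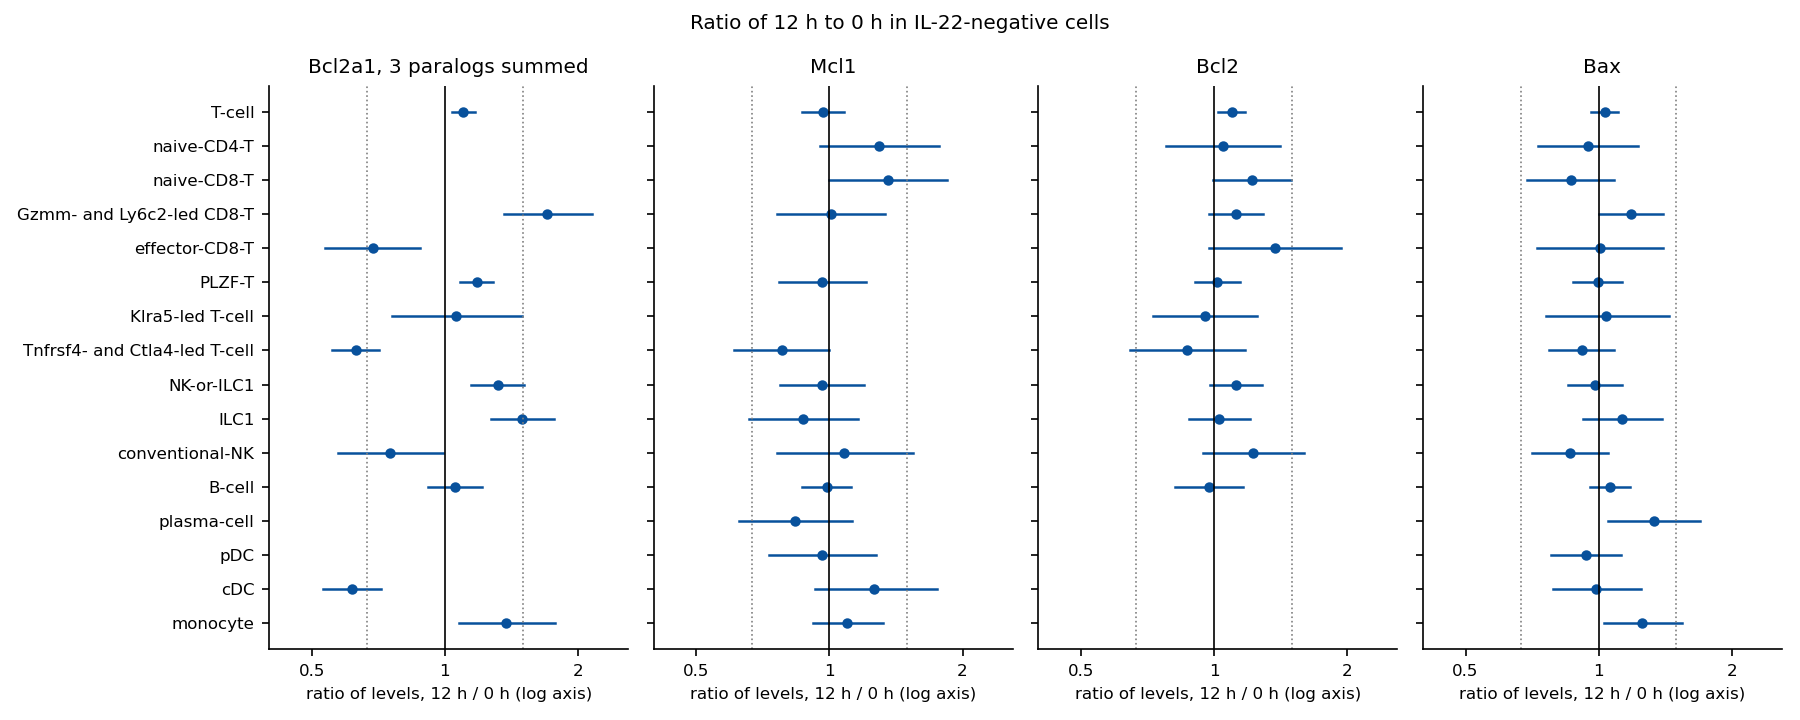
Ratio of the level at 12 h to that at 0 h in IL-22-negative cells (log axis) for the Bcl2a1 sum, Mcl1, Bcl2 and Bax, in each class and sub-cluster where the gene was measured, with exact 95% intervals. Dotted lines mark 1.5-fold in each direction and class names leave out "-like". The Bcl2a1 sum spreads from 0.616 to 1.70, whereas every point of Mcl1, Bcl2 and Bax lies within 1.5-fold.

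In cDC-like cells all 3 paralogs fell among 5 measured members, where 6.75% of 3276 genes were lower. The sum went from 761 CPM (665 to 867) to 468 (436 to 502), a ratio of 0.616 (0.530 to 0.717). Bcl2a1a, Bcl2a1b and Bcl2a1d gave 0.561, 0.610 (0.488 to 0.768) and 0.635 (0.507 to 0.802), whereas Mcl1 gave 1.26 and Bax 0.985. This direction depended on which cells were called cDC-like: with a stricter cell filter and new clustering the class grew from 51 to 110 cells at 0 h and the sum gave 1.18, at a finer clustering it gave 0.973, and in the Cd209a-led sub-cluster alone 0.497. The 64 cells added at 0 h by the stricter filter had 48.9 CPM. The summed level of interferon-response genes in cDC-like cells was 375 CPM at 0 h and 615 at 12 h, and its part in the result was not tested.

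In monocyte-like cells Bcl2a1b rose from 52.6 CPM (35.3 to 75.6) to 102 (88.8 to 116), a ratio of 1.94 (1.31 to 2.96), the 1 of 5 measured members to pass, where 12.9% of 4170 genes were higher. The sum gave 1.37 (1.07 to 1.78), Bcl2a1d 1.08, Mcl1 1.10, Bcl2l11 1.41 (0.792 to 2.70) and Bax 1.26 (1.03 to 1.54). Gstm1-led cells made up most of the monocyte-like class at 0 h and S100a8-led cells were its largest sub-cluster at 12 h. With each sub-cluster given the same weight at both times, its share of the 2 sums together, Bcl2a1b gave 1.38 and the sum 1.02. Only 3 sub-clusters had the 10 cells needed in both libraries: Gstm1-led, interferon-led and non-classical-monocyte-like cells. S100a8-led cells (1 at 0 h and 157 at 12 h) did not enter, so these weighted values cover only part of the class. The finer clustering gave 0.767 for the sum and 1.45 for Bcl2a1b. Over all 10 alternative settings Bcl2a1b ran from 1.15 to 2.96, and 7 of them kept its call. The neutrophil markers summed to 39.9 CPM at 0 h and 3899 at 12 h in these cells, and the macrophage markers to 54.5 and 281 with Clec4f, Timd4 and Marco at 0. Their part in the result was not tested.

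The second comparison set the IL-22-positive against the IL-22-negative fraction, which the cell numbers allowed in monocyte-like cells at both times and in Lpl-led cells at 12 h. The Bcl2a1 genes were higher in the IL-22-positive fraction in all 3 cases. In monocyte-like cells at 0 h Bcl2a1b was at 389 CPM (335 to 449) against 52.6 (35.3 to 75.6), a ratio of 7.38 (4.97 to 11.3), and Bcl2a1d at 221 against 63.5, a ratio of 3.47 (2.35 to 5.25). Mcl1 was 1.81-fold (1.47 to 2.24) higher, and Bax gave 1.31 (1.02 to 1.69). Thus 3 of 4 measured members passed, where 12.5% of 1590 genes were higher. The median log2 ratio was 1.33 over the measured members and -0.10 over all measured genes.

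At 12 h the ratios in monocyte-like cells were 3.06 (2.22 to 4.32) for Bcl2a1a, 2.45 (2.11 to 2.85) for Bcl2a1b and 2.41 (2.004 to 2.91) for Bcl2a1d. Bcl2l11 was 1.76-fold (1.35 to 2.31) higher, at 63.0 CPM (54.8 to 72.1) against 35.9 (28.3 to 44.9). Mcl1 gave 1.45 (1.32 to 1.60) and Bax 1.12. In all, 4 of 6 measured members passed, where 9.63% of 5397 genes were higher. The share of monocyte-like cells with a Bcl2a1 UMI was 39.6% against 24.9%, or 21.7% against 9.74% after thinning to 1000 UMIs, at medians of 4114 and 5021 UMIs a cell. The pDC-like cells, the class with the lowest sum among IL-22-negative cells at 12 h, had 1.93% and 0.833% there.

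The monocyte-like class was composed differently in each library. Of the cells in the 7 monocyte-like sub-clusters and the Lpl-led cluster together, Gstm1-led cells made up 69.2% of the IL-22-negative and 13.1% of the IL-22-positive library at 0 h, and 21.2% and 2.07% at 12 h. Ace- and Nr4a1-led cells made up 6.77% and 40.1% at 0 h, and 5.36% and 21.7% at 12 h. S100a8-led cells made up 31.2% and 15.7% at 12 h. With the same sub-cluster weights in both fractions the ratio of the sum went from 4.76 to 1.72 at 0 h and from 2.50 to 1.61 at 12 h, and at 0 h the calls of Bcl2a1d and Mcl1 were lost, at 1.36 and 1.49. The ratios were thus smaller in this setting, and that of the sum stayed above 1.5. At 0 h those weights rest on 3 sub-clusters with at least 10 cells in both libraries: Gstm1-led, interferon-led and non-classical-monocyte-like cells. Ace- and Nr4a1-led cells (9 IL-22-negative and 55 IL-22-positive) did not enter at 0 h. The step from 4.76 to 1.72 therefore reflects the cells used as well as the weights.

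**Figure D4:**
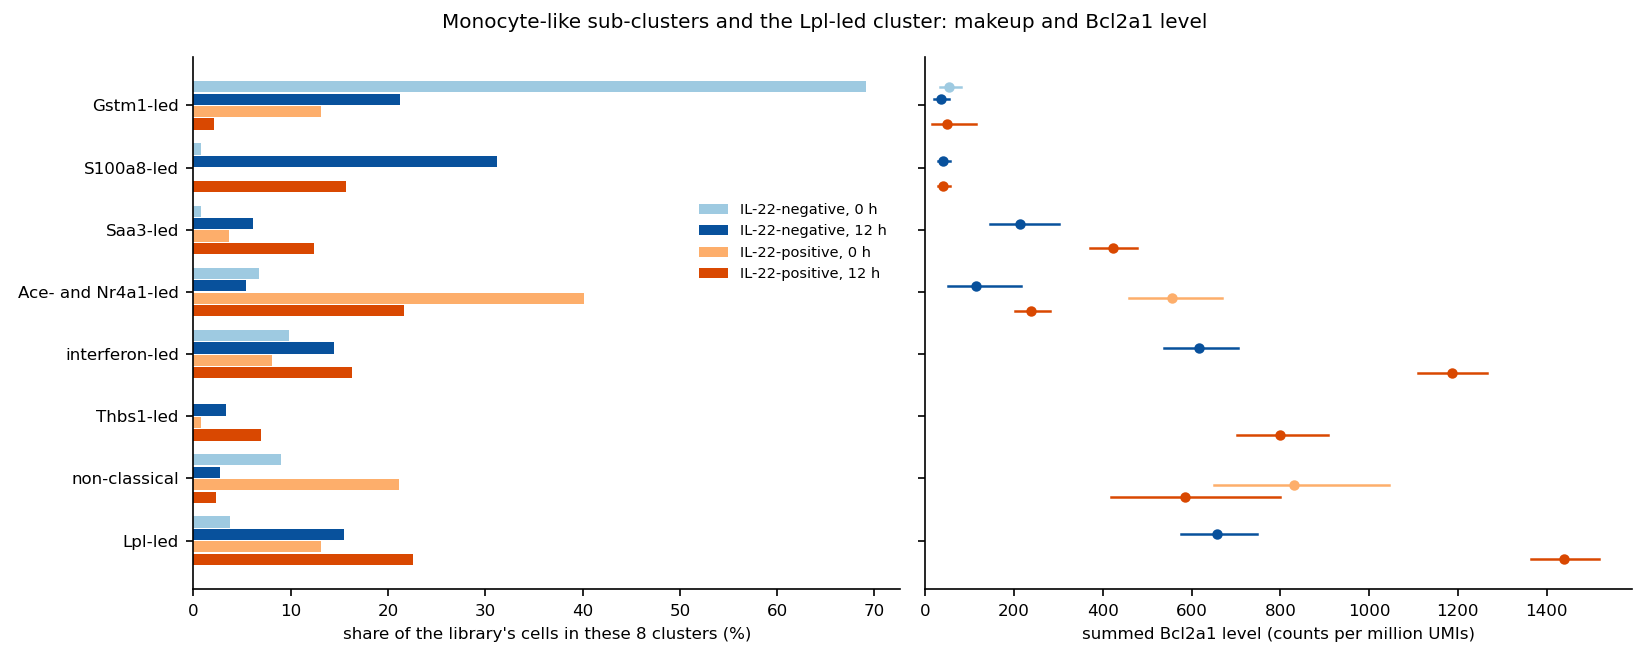
Left, share (%) of the cells of each library in the 7 monocyte-like sub-clusters and the Lpl-led cluster. Right, level of the Bcl2a1 sum (CPM) in each with exact 95% Poisson intervals, drawn where a library had at least 20 cells. Gstm1-led and S100a8-led cells lie at low Bcl2a1 in every library drawn, and at 12 h the IL-22-positive points (dark orange) lie above the IL-22-negative points (dark blue) in Saa3-led, Ace- and Nr4a1-led, interferon-led and Lpl-led cells.

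The sub-clusters differed in how far the fractions parted at 12 h. In interferon-led monocyte-like cells the sum was at 1186 CPM (1109.9 to 1266) in the IL-22-positive and 617 (538 to 705) in the IL-22-negative fraction. The ratios there were 2.48 (1.64 to 3.90) for Bcl2a1a, 1.79 (1.45 to 2.21) for Bcl2a1b, 1.93 (1.49 to 2.51) for Bcl2a1d and 2.80 (1.37 to 6.44) for Bcl2l11, while Mcl1 gave 1.08 and Bax 1.14. These were 4 of 6 measured members, where 9.27% of 1952 genes were higher. In S100a8-led cells the sum stood at 39.7 CPM (27.9 to 54.7) and 39.4 (27.5 to 54.8), on 37 and 35 UMIs, with Mcl1 at 1.23 and Bax at 1.27. There 0 of the 2 measured members passed (21.4% of 2315 genes did).

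In Lpl-led cells at 12 h the sum was 1439.7 CPM (1365 to 1518) in the IL-22-positive and 658 (576 to 748) in the IL-22-negative fraction, a ratio of 2.19 (1.90 to 2.53). Bcl2a1a gave 1.80 (1.30 to 2.55), Bcl2a1b 2.62 (2.13 to 3.25) and Bcl2a1d 1.85 (1.46 to 2.37), so 3 of 6 measured members passed, where 12.4% of 2284 genes were higher. The call of Bcl2a1d was lost after thinning, at 1.34. Mcl1 at 1.19, Bcl2l11 at 0.860 and Bax at 0.906 did not pass. The share of these cells with a Bcl2a1 UMI was 67.1% against 41.0%, or 49.4% against 23.7% after thinning, at similar medians of 4022.5 and 4281.5 UMIs. The macrophage markers summed to 2032 and 1611 CPM, with Clec4f, Timd4, Vsig4 and Cd5l at 0 in both, and the monocyte markers to 12769 and 17038. Their part in the result was not tested.

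Other myeloid groups held under 50 cells in at least 1 of the fractions at 12 h, and 5 of them are given as values. Cd209a-led cDC-like cells had a Bcl2a1 sum of 1753 CPM (26 cells) in the IL-22-positive and 414 (379 to 451) in the IL-22-negative fraction. Saa3-led monocyte-like cells had 422 (372 to 478) and 213 (146 to 301, 31 cells). The Arg1- and Pf4-led cluster had 1248 (1014 to 1519, 30 cells) and 928 (744 to 1143, 20 cells). Thbs1-led monocyte-like cells went the other way, with 799.5 (702 to 907) in the IL-22-positive and 951 (757 to 1179, 17 cells) in the IL-22-negative fraction. Ace- and Nr4a1-led cells had 238 (201 to 280.3) and 114 (52.0 to 216, 27 cells). The intervals of the Cd209a-led and Saa3-led pairs did not overlap, and those of the other 3 pairs did.

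**Figure D5:**
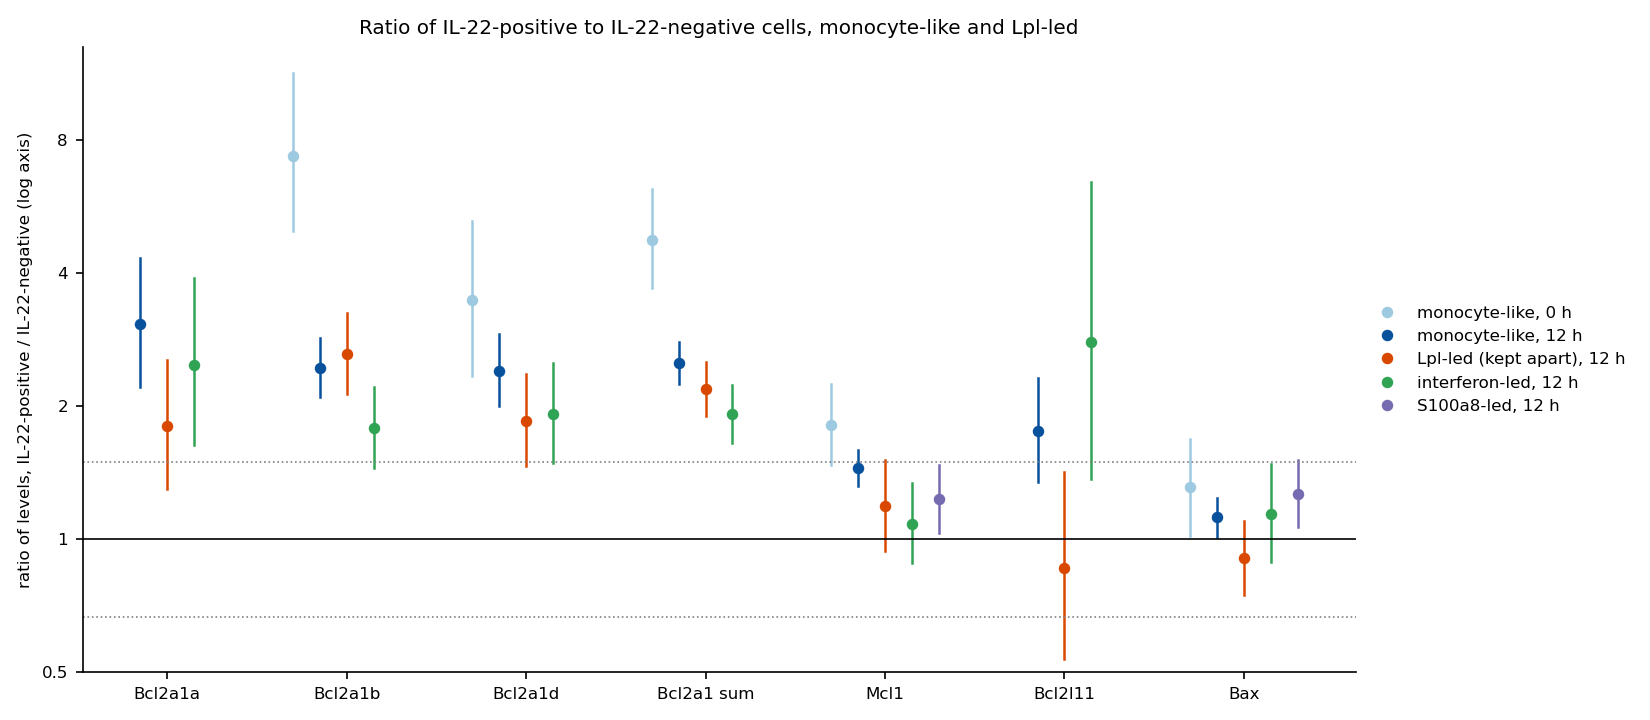
Ratio of the level in IL-22-positive to that in IL-22-negative cells (log axis) with exact 95% intervals, for monocyte-like cells at 0 and 12 h, Lpl-led cells at 12 h and 2 monocyte-like sub-clusters at 12 h. Points are drawn where the gene was measured, and dotted lines mark 1.5-fold. The Bcl2a1 genes lie above 1.5 in every series drawn for them, and Bax between 0.906 and 1.31. S100a8-led cells have no Bcl2a1 points because their UMIs were too few, and their sums were alike in both fractions.

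The third comparison followed the IL-22-positive monocyte-like cells from 0 to 12 h. The Bcl2a1 sum went from 666 CPM (594 to 743) to 480.4 (457 to 504), a ratio of 0.722 (0.639 to 0.816). Bcl2a1b fell to 0.642 (0.547 to 0.757), the 1 of 6 measured members to pass, where 17.5% of 5319 genes were lower. Bcl2a1d gave 0.752, Bcl2a1a 1.15, Mcl1 0.878, Bcl2l11 1.36 and Bax 1.07. The value of Bcl2a1a ran from 0.596 with the stricter cell filter to 2.04 with the Lpl-led cells added. Ace- and Nr4a1-led cells were the largest monocyte-like sub-cluster at both times. In them the sum fell from 557 CPM (459 to 668) to 238 (201 to 280.3), a ratio of 0.428 (0.333 to 0.552), with Bcl2a1b at 0.350 (0.253 to 0.486) and Mcl1 at 1.08. Bcl2l11 was past the threshold there at 1.56-fold, with an interval that includes 1 (0.845 to 3.09), so that 1 of 4 measured members was higher and 1 lower, where 15.4% of 1732 genes were higher and 6.93% lower. The neutrophil markers summed to 106 and 1840 CPM in these cells at 0 and 12 h, and their part in the result was not tested. With the Lpl-led cells added to the monocyte-like cells the sum gave 1.10 and Bcl2a1b 0.979, so the lower level holds for the class without them. The IL-22-positive 0 h library enters this comparison and the one between fractions at 0 h, so they are not independent.

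Of the other 64 genes of the pathway, few passed in lymphocytes 12 h after injection. In T-cell-like cells 0 of 48 measured genes rose and 1 fell (1.31% and 2.65% of all measured genes did). In NK-or-ILC1-like cells 0 of 36 rose and 1 fell (1.49% and 2.77% of all), the p53 target Cdkn1a at 0.661. In B-cell-like cells 0 of 35 rose and 4 fell (0.994% and 4.97% of all), among them the BH3-only genes Pmaip1 (0.627) and Bbc3 (0.619, with an interval that includes 1) and the cytokine receptor gene Il2rb (0.506). All 11 genes of the NF-kappaB list were measured in each of these 3 classes and 0 passed in either direction.

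In the myeloid classes the counts of pathway genes were read beside those of all measured genes. In cDC-like cells 4 of 29 rose and 2 fell (13.4% and 6.75% of all measured genes did), with the BH3-only gene Pmaip1 at 0.428 and the caspase inhibitor gene Xiap at 0.600 (0.350 to 1.08). In IL-22-negative monocyte-like cells 5 of 39 rose, among them the interleukin-4 receptor gene Il4ra (2.13) and Cdkn1a (2.07), and 3 fell, among them Pmaip1 (0.457), where 12.9% of all rose and 7.96% fell. In IL-22-positive monocyte-like cells 5 of 42 rose and 5 fell over time (15.2% and 17.5% of all), with the BH3-only genes Bad at 1.92, Bbc3 at 0.378 and Pmaip1 at 0.474. The 2 IL-22-positive against IL-22-negative comparisons in monocyte-like cells gave 8 of 16 higher and 0 lower at 0 h (12.5% of all in each direction), and 6 of 43 higher and 2 lower at 12 h, where 520 of all 5397 measured genes were higher and 591 lower. The NF-kappaB subunit gene Nfkb1 (2.78 and 1.89), Pmaip1 (1.52 and 1.57), the TNF receptor gene Tnfrsf1b (1.89 and 1.82) and Cdkn1a (1.60 and 1.64) were higher at both times. Their values with the same sub-cluster weights in both fractions were not computed. In Lpl-led cells at 12 h none of them passed: Nfkb1 gave 0.970, Pmaip1 0.987, Tnfrsf1b 1.19 and Cdkn1a 0.934. In Lpl-led cells 3 of 23 were higher and 0 lower (12.4% and 10.0% of all), the effector gene Bak1 (1.53, with an interval of 0.893 to 2.77 that includes 1) and the receptor genes Csf1r (1.60) and Csf2rb (1.59).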

How the data were processed

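Droplet libraries were made with the 10x Single Cell 3' v2 chemistry, per the labels' protocols. The values are UMI counts per gene and barcode that the authors deposited as 1 matrix per library, made with Cell Ranger 3.0.1 on mm10 per the submitters' processing notes, while the matrix headers name version 4.0.0. From these counts, barcodes with under 200 genes or over 10% mitochondrial UMIs were removed, then doublets with Scrublet (373, 607, 6 and 5 cells for IL-22-negative 0 and 12 h and IL-22-positive 0 and 12 h). Its automatic threshold marked 1 cell of the second library, so the threshold of 0.2425 from the first was used there. Cells were clustered with scanpy 1.11.5 (2000 variable genes without the BCL-2 family, antigen receptor segments and Il22, 30 components, 15 neighbours, Leiden resolution 1). Members were summed over the cells of a class and library. Ratios have exact conditional binomial intervals, and the calculation was tested on simulated data. With 1 library per group, p-values were not computed. Cells are not replicates, and a CPM level cannot tell fewer expressing cells from less RNA per cell. The members and gene lists were chosen with earlier results of these data known. Named were all 8 members, at most 4 genes a list past 1.5-fold, and the 3 genes most correlated with each of the Bcl2a1 sum, Mcl1, Bcl2 and Bcl2l1. Some items under this rule are not reported here. Sequences come from GENCODE transcripts and RefSeq promoters of GRCm38. Bcl2a1b, Bcl2 and Bax overlap same-strand gene models that are not in the features, and Bcl2a1d and Bcl2 overlap opposite-strand ones that are, so their counts are uncertain to that extent.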

Additional observations from a re-analysis of the deposited data

Results flagged for a closer look

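The ratio of 12 h to 0 h in IL-22-negative cells passed 1.5-fold in opposite directions between cell groups for all the Bcl2a1 measures named here. The differences between groups were not tested, because each group is 1 library. The Bcl2a1 sum was lower in cDC-like cells (0.616) and in Tnfrsf4- and Ctla4-led T cells (0.628), and higher in Gzmm- and Ly6c2-led CD8-T-like cells (1.70). Bcl2a1b was lower in cDC-like cells (0.610) and Tnfrsf4- and Ctla4-led T cells (0.664). It was higher in monocyte-like cells (1.94), Gzmm- and Ly6c2-led CD8-T-like cells (1.59) and ILC1-like cells (1.53). Bcl2a1d was lower in cDC-like cells (0.635), Tnfrsf4- and Ctla4-led T cells (0.562) and effector-CD8-T-like cells (0.561), and higher in NK-or-ILC1-like cells (1.51) and Gzmm- and Ly6c2-led CD8-T-like cells (2.11). The cDC-like values, Bcl2a1b in monocyte-like cells and Bcl2a1d in NK-or-ILC1-like cells lost the call under some alternative settings. The sub-cluster values were not computed under them.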

How the results depend on the processing

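No paired analysis was possible because each group has 1 library. Over 64 ratios of members, 575 values were computed under alternative settings: 503 moved by less than their interval, 69 moved by more and 3 reversed. Only ratios past 1.5-fold could count as reversed. Others also crossed 1, such as the monocyte-like sum over time, from 1.37 to 0.767 (IL-22-negative) and from 0.722 to 1.10 (IL-22-positive). Bcl2l11 in IL-22-negative monocyte-like cells over time went from 1.41 to as low as 0.784. Changes of scaling moved 0 of 64 past that limit. The 3 that reversed were those of cDC-like cells with at least 500 genes, under 5% mitochondrial UMIs and new clustering (Bcl2a1b 1.33, Bcl2a1d 1.13, sum 1.18), where most added cells had a low Bcl2a1 level. The settings that add a cluster or weight sub-clusters were chosen after seeing the data. The weighting used only sub-clusters with at least 10 cells in both libraries. These were 3 (IL-22-negative) and 4 (IL-22-positive) over time, and 3 (0 h) and 7 (12 h) between fractions. In T-cell-like cells Bcl2 gave 0.990 with the cluster of few UMIs added, and the Bcl2a1 sum 1.01 after thinning and 1.18 with interferon-led lymphocytes added. For monocyte-like cells the sum over time in the IL-22-negative fraction gave 1.06 as a mean over cells, 0.991 with the strict filter, 0.767 at Leiden resolution 2 and 1.02 with the same sub-cluster weights in both libraries. In the IL-22-positive fraction it gave 0.623 with the strict filter, 0.550 at resolution 2, 1.10 with the Lpl-led cluster added and 0.604 with the same weights. Between fractions at 0 h, the sum gave 3.11 as a mean over cells, 3.12 with the strict filter, 3.66 with that cluster added and 1.72 with the same weights, and Mcl1 gave 2.62 after thinning. At 12 h the sum gave 1.96 with the strict filter and 1.61 with the same weights, and Mcl1 1.77 after thinning, 1.62 at resolution 2 and 1.25 with the same weights. Except where a changed cell class is named, the cause was not tested.

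Counts of genes past the fold moved with the minimum UMIs (20, then 200), a fold of 2 and thinning. T-cell-like cells gave 791, 57 and 85 for the first 3, against 311. Monocyte-like cells gave 1827, 232, 258 and 295 (IL-22-negative over time, against 872), 2810, 536, 605 and 729 (IL-22-positive over time, against 1737), 1213, 77, 99 and 106 (between fractions at 0 h, against 396) and 1840, 343, 383 and 483 (at 12 h, against 1111). Under 50 cells a class, intervals span the sizes compared.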

Other observations

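The unnamed clusters of few UMIs had high levels of Bcl2 and Bcl2l11. The cluster with T cell markers had 459 CPM of Bcl2 at 0 h and 505 at 12 h (IL-22-negative), and 165 and 228 CPM of Bcl2l11, against 199 and 218 and 36.3 and 46.8 in T-cell-like cells. Its Bax was lower, at 97.1 and 128 CPM, and its Bcl2a1 sum was 206 and 236 CPM. The cluster with NK cell markers had 482 and 598 CPM of Bcl2 and 291 and 224 of Bcl2l11.

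Interferon-led lymphocytes, kept apart from the T-cell-like cells, numbered 46 at 0 h and 408 at 12 h among IL-22-negative cells. Their Bcl2a1 sum was 747 CPM (620.4 to 892) and 603 (559.8 to 649), above the T-cell-like intervals at both times.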
